A study of Mus musculus with 6 samples.

Results

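The deoxynucleotide supply enzymes are the 9 genes Rrm1, Rrm2, Rrm2b, Tyms, Dut, Dtymk, Tk1, Dck and Samhd1, taken by gene symbol from a table of 55487 genes. All 9 were present and all 9 passed the filter on low values, a mean of at least 10 normalized reads over the libraries. They were followed in RNA sequencing of adult mouse subventricular zone cells, the neurogenic tissue along the lateral ventricles. The knockout group carried the genotype E2F1(-/-);E2F3(F/F) and the heterozygous group E2F1(+/-);E2F3(F/+), with 3 libraries each. Both groups shared a C57BL/6;Sv/129;FVB/N background and the NestinCreERT2/R26;EYFP alleles, a tamoxifen-inducible Cre driven from the Nestin gene's control region with a yellow fluorescent reporter. Both also received tamoxifen by gavage, 200 mg/kg per day for 5 days from an age of 6 to 10 weeks, and were sampled 10 days after the last dose. The controls therefore lacked 1 working E2f1 allele and carried 1 floxed E2f3 allele, and no wild-type library was analysed here. Each library was a pool of several mice with at least 200000 reporter-positive sorted cells, and library spread therefore reflects pools rather than single animals.

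Cells that copy their DNA need the 4 deoxynucleotides in balance. Ribonucleotide reductase makes them by reducing ribonucleotides, through a large subunit (Rrm1) and a small, radical-bearing subunit that is either Rrm2, produced mainly in dividing cells, or Rrm2b, a p53 target used outside S phase. Thymidine nucleotides need a further branch: Dut removes dUTP and yields dUMP, Tyms methylates dUMP to dTMP, and Dtymk phosphorylates dTMP. The salvage kinases Tk1 and Dck rephosphorylate deoxynucleosides taken up or released by cells, and Samhd1 breaks deoxynucleotides down. E2F1 and E2F3 are transcription factors known for activating S-phase genes, including several of these enzymes, and neural stem cells leave quiescence before they divide and produce neuroblasts.

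The libraries held 19798675 to 25982361 reads assigned to genes. E2f1, the gene with a null allele, was measured first as a check of the labels. It stood at 375.1, 482.6 and 516.1 normalized reads in knockout libraries A, B and C, against 1152.1, 1388.5 and 1029.5 in heterozygous libraries A, B and C (log2 change of -1.38 ± 0.22 (SE), limma adjusted p = 0.00559). E2f3, whose floxed allele was to be recombined, stood at 323.6, 230.6 and 244.9 normalized reads in knockout libraries against 292.6, 204.8 and 252.9 in heterozygous libraries. The E2f3 change of 0.09 ± 0.28 (SE) on the log2 scale did not pass the test (limma adjusted p = 0.845), and a count over the whole gene does not show whether the floxed segment was removed. The E2f1 groups did not overlap, but knockout libraries kept 38.5% of the heterozygous level and the change was near that of the MCM replication helicase genes (median -1.50), so E2f1 RNA is a weak check of the labels. The E2f3 groups overlapped.

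Together the 9 genes held 7900, 11969 and 14179 recovered reads in knockout libraries A, B and C, against 33421, 44707 and 25867 in heterozygous libraries A, B and C. At a limma adjusted p under 0.05, 6 of the 9 genes fell in knockout libraries: Rrm1, Rrm2, Tyms, Dut, Tk1 and Dck. The limma count of genes that rose was 0, also at an unadjusted p under 0.05, and edgeR and DESeq2 called the same 6 lower and 0 higher. Among all 18227 genes tested, 15.8% were called in either direction, 8.59% lower and 7.23% higher in knockout libraries. For 7 of the 9 genes, Dtymk being the seventh, the highest knockout library was still below the lowest heterozygous one, which held for 20.2% of all genes tested. The median log2 change of the 9 genes was -1.44, beside 0.046 for all genes tested. The authors' deposited table, which has its own test and weights, called 7 of the 9 lower at adjusted p under 0.05, adding Dtymk, beside 6.83% of its 31628 genes with an adjusted p. In these sorted pools, fewer cells of a type and less RNA per cell cannot be told apart.

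**Figure D1:**
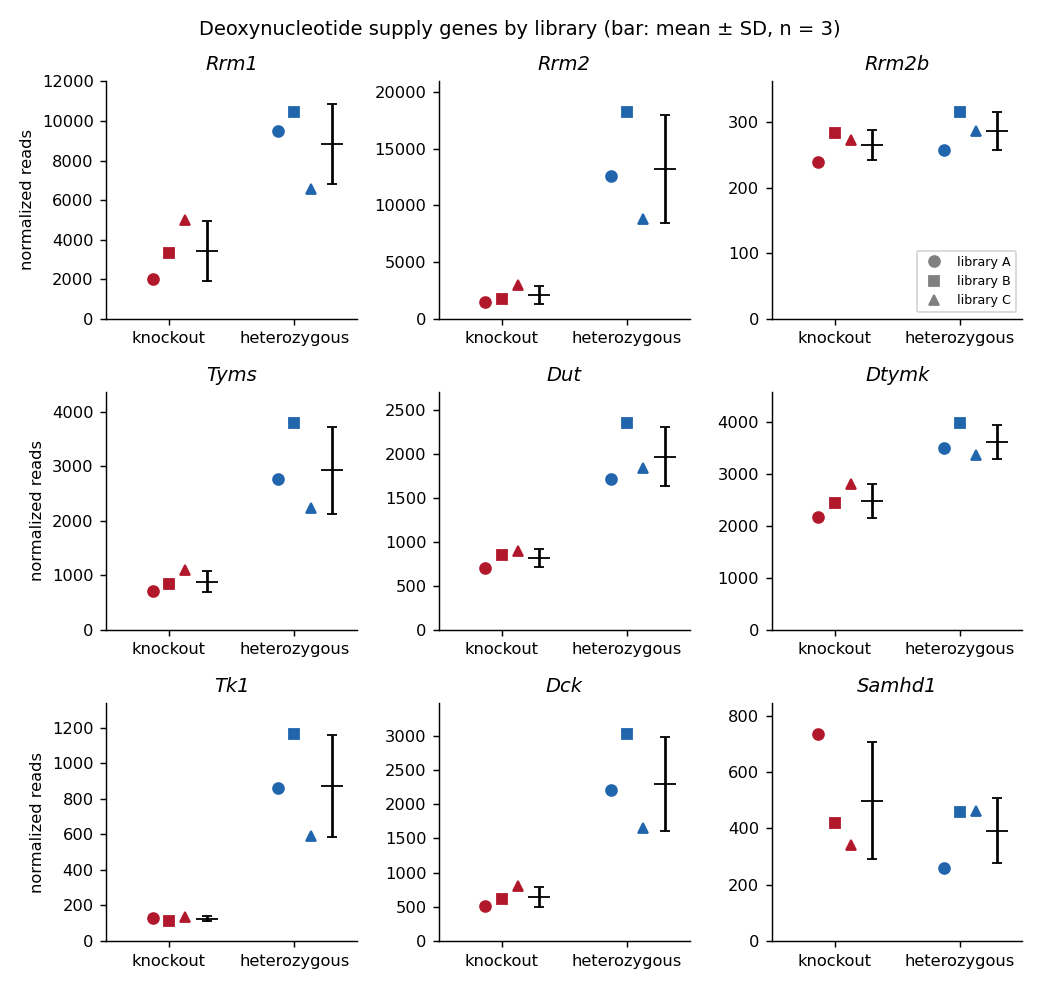
Normalized reads of each of the 9 genes, on linear axes starting at 0, in the 3 knockout and 3 heterozygous libraries, points being libraries (A, B, C by shape) and bars the group mean ± SD (n = 3 each). Rrm2 and Tk1 have the largest fold between the groups (6.40 and 6.67), Dtymk a narrow gap, and Rrm2b and Samhd1 overlap.

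**Figure D2:**
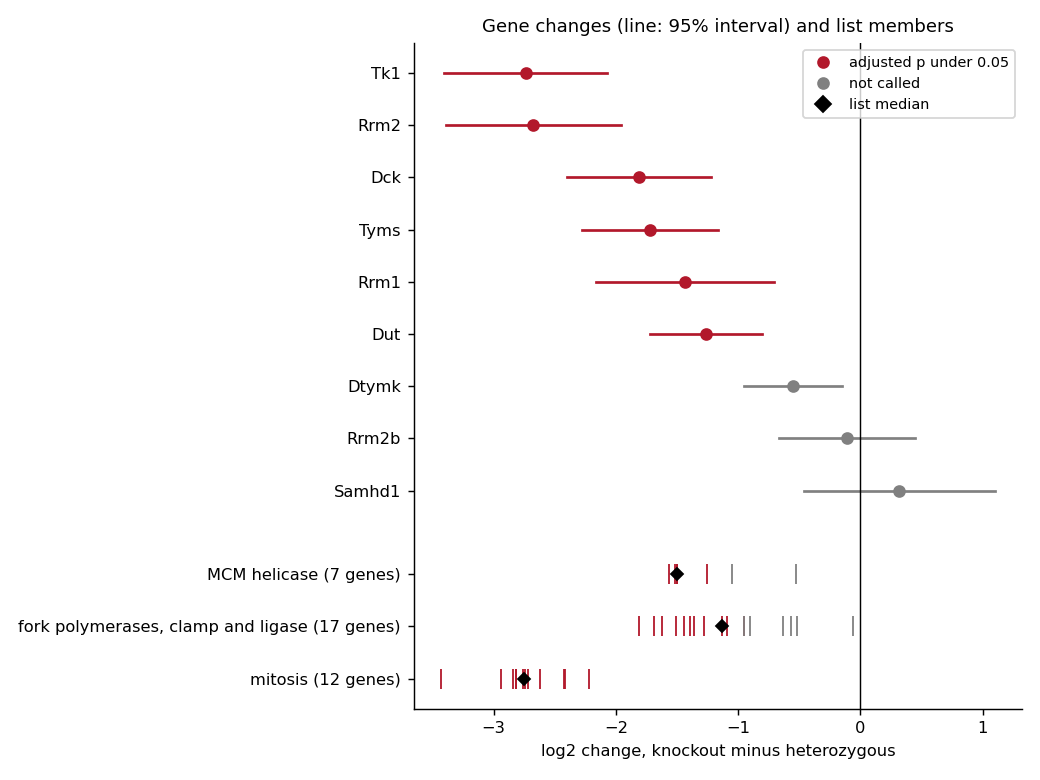
Log2 change of each gene, knockout minus heterozygous, with its 95% interval from limma, above the single-gene changes of the replication and mitosis lists (ticks) and their medians (diamonds). Tk1 and Rrm2, at -2.74 and -2.68, lie beside the mitosis median of -2.76, while Rrm1 and Dut lie near the helicase and fork medians of -1.50 and -1.13.

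Sequence around the RefSeq starts of the genes was set beside their changes, since members that moved together may be compared for letters known to be bound by E2F. RefSeq promoter windows on GRCm38.p6, from 250 bases before to 50 after the start, matched 8 of the 9 genes, and Rrm2b was not used here. The words TTTCCCGC, TTTGGCGC, TTTCGCGC and TTTGCCGC, which are forms of the E2F site, were searched on both strands. They occurred in 0 of the 8 windows, against 2.26% of 32851 windows in the table and 3.56% of the 16009 windows of genes tested here. After that search, the same 4 words shortened to 7 letters by dropping the first T, and the CCAAT box, bound by the factor NF-Y, were searched as well. A 7-letter word occurred in 3 of the 8 windows (37.5%), those of Rrm1, Rrm2 and Dtymk, against 9.57% of all windows and 15.3% of windows of tested genes. CCAAT occurred in the same 3 windows (37.5%), near its share of all windows (37.4%). The windows of these 3 genes and that of Tk1, the gene with the lowest log2 change and no word, are printed 5′ to 3′ on the gene's strand with matched words in capitals. They lie at chr12:24708004-24708303 (plus strand, Rrm2), chr7:102441445-102441744 (plus strand, Rrm1), chr1:93801885-93802184 (minus strand, Dtymk) and chr11:117825965-117826264 (minus strand, Tk1).
Rrm2: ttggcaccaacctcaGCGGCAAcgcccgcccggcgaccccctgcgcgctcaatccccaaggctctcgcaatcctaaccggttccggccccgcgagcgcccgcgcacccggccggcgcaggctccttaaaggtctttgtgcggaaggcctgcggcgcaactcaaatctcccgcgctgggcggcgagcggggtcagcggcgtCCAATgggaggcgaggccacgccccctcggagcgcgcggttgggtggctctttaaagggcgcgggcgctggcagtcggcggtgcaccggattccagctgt
Rrm1: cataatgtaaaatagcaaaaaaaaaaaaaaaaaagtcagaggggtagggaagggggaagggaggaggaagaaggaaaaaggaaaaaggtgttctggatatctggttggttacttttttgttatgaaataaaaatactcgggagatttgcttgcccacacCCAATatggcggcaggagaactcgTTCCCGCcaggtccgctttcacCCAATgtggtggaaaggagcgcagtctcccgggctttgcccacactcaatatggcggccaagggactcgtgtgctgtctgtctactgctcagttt
Dtymk: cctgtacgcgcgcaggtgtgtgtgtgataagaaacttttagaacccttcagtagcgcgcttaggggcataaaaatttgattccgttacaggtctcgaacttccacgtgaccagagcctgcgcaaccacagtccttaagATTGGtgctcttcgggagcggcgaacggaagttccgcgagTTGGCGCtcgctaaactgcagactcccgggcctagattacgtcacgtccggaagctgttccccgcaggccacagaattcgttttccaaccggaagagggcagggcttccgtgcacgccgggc
Tk1: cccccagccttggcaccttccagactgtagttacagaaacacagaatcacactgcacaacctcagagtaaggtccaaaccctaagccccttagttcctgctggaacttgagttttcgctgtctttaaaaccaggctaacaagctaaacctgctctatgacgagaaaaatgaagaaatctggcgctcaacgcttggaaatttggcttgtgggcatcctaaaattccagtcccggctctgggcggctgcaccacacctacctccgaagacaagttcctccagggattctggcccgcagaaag
In the Rrm2 window the 7-letter word, read as GCGGCAA on the printed strand, begins 235 bases before the start and CCAAT 50 bases before it. In the Rrm1 window TTCCCGC begins 67 bases before the start, between CCAAT words at 91 and 45 bases. In the Dtymk window TTGGCGC begins 72 bases before the start and the CCAAT word, read as ATTGG, 112 bases before it. None of the words shown overlaps another. The windows of Tyms, Dut, Dck, Tk1 and Samhd1 held none of these words, so genes that fell and a gene that did not fall are both among the windows without one. The Dut window (chr2:125247265-125247564, plus strand) lies wholly inside the gene as annotated by GENCODE, which starts at 125247190. Sequence before that Dut start was not searched. A match is a run of letters and not evidence of binding, and no match speaks only of these letters in this window.

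The small subunit of ribonucleotide reductase fell most within the enzyme. Rrm2 (ENSMUSG00000020649, chr12:24708241-24714146, plus strand, GRCm38) stood at 1472, 1771 and 2971.9 normalized reads in knockout libraries A, B and C, against 12638.9, 18259.6 and 8820.7 in heterozygous libraries A, B and C. Every knockout library was far below the lowest heterozygous one, and the groups did not overlap. The means were 2072 ± 794 in knockout and 13240 ± 4748 in heterozygous libraries (SD, n = 3 each). Rrm2 fell 6.40-fold, a log2 change of -2.68 ± 0.32 (SE) with a 95% interval of -3.39 to -1.96 (limma adjusted p = 0.00156). Rrm2 passed in every one of the 15 alternative fits.

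The large subunit Rrm1 (ENSMUSG00000030978, chr7:102441695-102469771, plus strand) stood at 1984.3, 3313.2 and 5016 normalized reads in knockout libraries A, B and C, against 9508.4, 10455 and 6583.8 in heterozygous libraries A, B and C. The groups did not overlap, but knockout C came closer to heterozygous C than any other pair. Knockout libraries differed among themselves more in Rrm1 than in any other of the 9 genes that fell, 2.53 times between the highest and the lowest. Rrm1 fell 2.71-fold, a log2 change of -1.44 ± 0.32 (SE) with a 95% interval of -2.16 to -0.71 (limma adjusted p = 0.0205). The call was lost without heterozygous A (limma adjusted p = 0.0800), heterozygous B (0.107) or knockout B (0.0718), and adjusted p ranged between 0.000554 and 0.107 over the alternatives.

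Rrm2b, the alternative small subunit (ENSMUSG00000022292, chr15:37923952-37961318, minus strand), stayed at 239.1, 283.2 and 272.2 normalized reads in knockout libraries A, B and C, against 257.3, 315.5 and 286.9 in heterozygous libraries A, B and C. The groups overlapped. Its log2 change of -0.11 ± 0.25 (SE) did not pass the test (limma adjusted p = 0.782), with a 95% interval of -0.67 to 0.44. An antisense gene, Gm49085, shares 734 exon bases (8.04%) with Rrm2b. The strand setting of the counting is not given in the sources used here, so reads of the shared part cannot be assigned to either gene. Gm49085 itself stood at 82.3, 60.6 and 29.4 normalized reads in knockout libraries and 68.6, 24.5 and 34.0 in heterozygous libraries.

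Ratios of the subunits did not overlap between genotypes. Levels per kilobase of exon, the scale on which genes were compared, used the merged exons of all annotated isoforms of a gene. The order of genes and the size of each ratio depend on that length. Per kilobase, Rrm2 exceeded Rrm2b 20.3, 20.6 and 36.0 times in knockout libraries A, B and C, against 162, 191 and 101 times in heterozygous libraries A, B and C. Rrm2 per kilobase was 2.95, 2.12 and 2.36 times Rrm1 in knockout libraries, against 5.28, 6.94 and 5.32 times in heterozygous libraries. In each library of the knockout group both ratios were under the lowest heterozygous ratio. On the log2 scale of normalized reads, the Rrm2 to Rrm2b difference was 2.90 ± 0.47 in knockout and 5.47 ± 0.47 in heterozygous libraries (SD, n = 3 each), a change of -2.57 (two-sided exact permutation test, p = 0.1). The Rrm2 to Rrm1 difference changed by -1.24 (exact permutation p = 0.1). With 3 libraries against 3, 0.1 is the smallest p this test can give, so neither can reach 0.05. Across the 4 pairs of genes compared, each exact permutation test gave p = 0.1, and Benjamini-Hochberg adjustment over the 4 leaves it at 0.1.

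**Figure D3:**
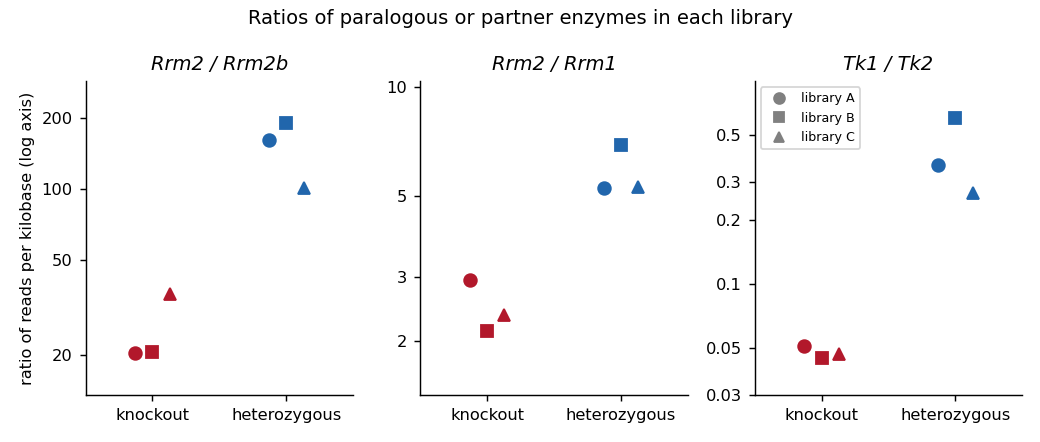
Ratios of normalized reads per kilobase in each library (log axes) for Rrm2 over Rrm2b, Rrm2 over Rrm1 and Tk1 over Tk2, knockout left of heterozygous, points being libraries. In all 3 panels the knockout libraries lie below every heterozygous library.

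The thymidylate branch fell at Tyms and Dut. Tyms, thymidylate synthase (ENSMUSG00000025747, chr5:30058202-30073617, minus strand), stood at 705.3, 844.1 and 1088.8 normalized reads in knockout libraries A, B and C, against 2763.2, 3795 and 2227.9 in heterozygous libraries A, B and C. Each knockout library was below the lowest heterozygous library, heterozygous C. Tyms fell 3.30-fold, a log2 change of -1.72 ± 0.25 (SE) (95% interval -2.28 to -1.16, limma adjusted p = 0.00350). A pseudogene copy, Tyms-ps, was listed at 0 in all 6 libraries. Dut, dUTPase (ENSMUSG00000027203, chr2:125247190-125258608, plus strand), stood at 705.3, 849.5 and 898.6 normalized reads in knockout libraries A, B and C, against 1713, 2354.6 and 1849.1 in heterozygous libraries A, B and C. The Dut groups did not overlap and both were tight, with means of 818 ± 100.5 in knockout and 1972 ± 338 in heterozygous libraries (SD, n = 3 each). Dut fell 2.40-fold, a log2 change of -1.26 ± 0.20 (SE) (95% interval -1.72 to -0.81, limma adjusted p = 0.00559). Tyms and Dut passed in all 15 alternative fits.

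Dtymk, the thymidylate kinase that follows Tyms (ENSMUSG00000026281, chr1:93792576-93801934, minus strand), did not pass the test. It stood at 2180.6, 2448.6 and 2819.1 normalized reads in knockout libraries A, B and C, against 3503.7, 3985.1 and 3377.4 in heterozygous libraries A, B and C. The groups did not overlap, with knockout C and heterozygous C nearest to each other. The log2 change was -0.55 ± 0.18 (SE), with a 95% interval of -0.95 to -0.15 (limma adjusted p = 0.0642). Adjusted p ranged between 0.0442, reached without knockout C, and 0.215, without knockout B. The authors' deposited table gives a log2 fold change of -0.54 and an adjusted p of 0.0474 for Dtymk. Per kilobase, Dtymk averaged 944 ± 122 normalized reads in knockout libraries, the highest of the 9 genes there, and 1377 ± 122 in heterozygous libraries, where Rrm2 at 4778 ± 1713 was higher (SD, n = 3 each).

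Both cytosolic salvage kinases fell. Tk1, thymidine kinase of dividing cells (ENSMUSG00000025574, chr11:117815526-117826092, minus strand), stood at 128.3, 111.3 and 136.6 normalized reads in knockout libraries A, B and C, against 862.6, 1162.1 and 589.7 in heterozygous libraries A, B and C. The highest knockout library was well under the lowest heterozygous one. Tk1 fell 6.67-fold, a log2 change of -2.74 ± 0.30 (SE) with a 95% interval of -3.40 to -2.07 (limma adjusted p = 0.00117). The libraries of a genotype spread by 10.3% of their mean in knockout and 32.9% in heterozygous mice (coefficient of variation). Tk1 shares 83 exon bases (1.60%) with Afmid on the opposite strand, so that a small part of its reads is uncertain. Dck, deoxycytidine kinase (ENSMUSG00000029366, chr5:88764996-88783281, plus strand), stood at 516.6, 617.1 and 802.4 normalized reads in knockout libraries A, B and C, against 2211.4, 3022.9 and 1658.2 in heterozygous libraries A, B and C. The Dck groups did not overlap. Dck fell 3.51-fold, a log2 change of -1.81 ± 0.26 (SE) (95% interval -2.40 to -1.22, limma adjusted p = 0.00361). Both kinases passed in all 15 alternative fits.

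The mitochondrial kinases Tk2 and Dguok, which serve mitochondrial DNA in cells at rest as well, did not pass the test. Tk2 stood at 1735.3, 1699.8 and 1999.5 normalized reads in knockout libraries A, B and C, against 1640.4, 1328.7 and 1507.3 in heterozygous libraries A, B and C (log2 change 0.28, limma adjusted p = 0.299). Dguok stood at 1297.6, 1222.5 and 1208.2 in knockout libraries against 1130.9, 1360 and 1254.4 in heterozygous libraries (limma adjusted p = 0.993). The Tk2 groups did not overlap, and the Dguok groups did. For Tk2 the knockout libraries were the higher ones, and the share of all genes separated in that direction was not computed. Per kilobase, Tk1 was 0.0508, 0.0450 and 0.0469 times Tk2 in knockout libraries A, B and C, against 0.361, 0.601 and 0.269 times in heterozygous libraries A, B and C. The Tk1 to Tk2 difference in log2 normalized reads was -3.84 ± 0.088 in knockout and -0.82 ± 0.59 in heterozygous libraries (SD, n = 3 each), a change of -3.02 (two-sided exact permutation test, p = 0.1). The Tk1 to Dck difference was -2.34 ± 0.29 in knockout and -1.41 ± 0.071 in heterozygous libraries (SD, n = 3 each), a change of -0.93 (exact permutation p = 0.1). The groups did not overlap in either difference.

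Samhd1, the deoxynucleotide triphosphohydrolase best known from human myeloid cells, overlapped between genotypes. Samhd1 (ENSMUSG00000027639, chr2:157097533-157135265, minus strand) stood at 733.8, 419.4 and 342 normalized reads in knockout libraries A, B and C, against 258.3, 456.6 and 460.8 in heterozygous libraries A, B and C. Knockout A was the highest and heterozygous A the lowest library, and the other 4 lay between them. The log2 change of 0.32 ± 0.35 (SE), with a 95% interval of -0.46 to 1.10, did not pass the test (limma adjusted p = 0.554). It was -0.000245 without knockout A and 0.042 without heterozygous A. The summed level of 10 microglia and macrophage markers had its highest value in knockout A as well, with 15332, 4359 and 4504 normalized reads in knockout libraries A, B and C, against 2862, 4535 and 10466 in heterozygous libraries A, B and C. Ependymal, endothelial, mural and red blood cell marker sums were highest in knockout A too (79617, 32466, 31519 and 21655). None of the 10 microglia and macrophage markers was at 0 in any library, and 0 passed by limma (0 at an unadjusted p under 0.05), edgeR or DESeq2. Without knockout A limma called 1 of the 10 lower. The part of any of these markers in the Samhd1 values was not tested.

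Libraries of a genotype were ordered alike for most of the 9 genes. Knockout A was the lowest knockout library for 7 of the 9 genes, the exceptions being Tk1, lowest in knockout B, and Samhd1, lowest in knockout C. Heterozygous B was the highest heterozygous library for 8 of the 9, all but Samhd1. Per kilobase the order of mean levels in knockout libraries was Dtymk (944), Rrm2 (748), Dut (339), Rrm1 (312), Dck (171), Tyms (144), Samhd1 (54.5), Rrm2b (29.0) and Tk1 (24.1). In heterozygous libraries it was Rrm2 (4778), Dtymk (1377), Dut (818), Rrm1 (804), Dck (608), Tyms (481), Tk1 (168), Samhd1 (42.8) and Rrm2b (31.4). On these merged exon lengths, Tk1 was thus the lowest of the 9 in knockout libraries and stood above Samhd1 and Rrm2b in heterozygous libraries. In knockout libraries the neighbours Dtymk and Rrm2, Dut and Rrm1, Rrm1 and Dck, Dck and Tyms, and Rrm2b and Tk1 overlapped in their ranges over libraries. In heterozygous libraries the neighbours Dut and Rrm1, Rrm1 and Dck, Dck and Tyms, and Samhd1 and Rrm2b overlapped.

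The other genes of nucleotide metabolism, together with 6 regulators of ribonucleotide reductase, were counted as a wider list. Of its 74 genes 72 were tested, Nme3 being listed at 0 in all libraries and Cda under the filter. Of the 72, 12 fell (16.7%) and 2 rose (2.78%) at a limma adjusted p under 0.05, beside 8.59% lower and 7.23% higher among all genes tested, with a median log2 change of -0.17. The count that fell was 3 without heterozygous B or without knockout B, 4 without heterozygous A, 6 without knockout A, 8 without heterozygous C and 18 without knockout C. Calls over all genes, 2883 with the 6 libraries, also moved, to 635, 697, 906, 2230, 2336 and 4019 without heterozygous B, knockout B, heterozygous A, knockout A, heterozygous C and knockout C. The count that rose ranged between 0 and 4 in these fits, and was 0 without knockout B or without either of heterozygous A and B, 1 without heterozygous C and 4 without knockout C. With replicate letters as a block 6 fell and 0 rose. Mthfd2, Txnrd1 and Ccnf fell in every one of these fits. Of the 12 that fell with the 6 libraries, Ccnf, Fzr1 and Trp53 came from the regulators.

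Around ribonucleotide reductase, 1 of 4 electron donors and 3 of 6 regulators fell, beside 8.59% of all genes tested. Ccnf, cyclin F, which in human cells marks RRM2 for degradation, stood at 155.8, 140.7 and 246.9 normalized reads in knockout libraries A, B and C, against 1597, 2209.6 and 1001.5 in heterozygous libraries A, B and C (log2 change -3.11, limma adjusted p = 0.00115). Its groups lay far apart, and its log2 change was lower than that of Rrm2. Txnrd1, the cytosolic thioredoxin reductase that supplies electrons through thioredoxin, stood at 1875.7, 2377.4 and 2960.8 in knockout libraries A, B and C, against 7592.6, 7550.8 and 5033.6 in heterozygous libraries A, B and C (log2 change -1.48, limma adjusted p = 0.00535). Trp53, the p53 gene whose protein activates Rrm2b, also fell (log2 change -0.78, limma adjusted p = 0.0362), as did Fzr1, an activator of the anaphase-promoting complex (-0.85, 0.0386). Trp53 had 1393.1, 1307.1 and 1760.7 normalized reads in knockout libraries A, B and C, against 2457.6, 3112 and 2125 in heterozygous libraries A, B and C. Trp53 and Fzr1 did not pass when knockout A or B, or heterozygous A or B, was left out.

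In the folate cycle that feeds Tyms, 2 of 12 genes fell (16.7%), beside 8.59% of all genes tested. Of the 12, 7 had a negative log2 change, and the list median was -0.34. Mthfd2, a mitochondrial enzyme of the cycle, stood at 222.7, 161.2 and 285.4 normalized reads in knockout libraries A, B and C, against 693.1, 629.1 and 672.7 in heterozygous libraries A, B and C (log2 change -1.61, limma adjusted p = 0.00647). Its relative Mthfd2l had a log2 change of -0.93 (limma adjusted p = 0.0215). Mthfd2l did not pass without knockout B or without either of heterozygous A and B.

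The remaining lists stand beside 8.59% of all genes tested called lower and 7.23% called higher by limma. Shares of all genes in each direction at an unadjusted p, by edgeR or by DESeq2 were not computed. Among 5 genes of pyrimidine synthesis 3 fell: Umps, UMP synthase (log2 change -0.90, limma adjusted p = 0.0431), and the CTP synthases Ctps (-0.94, 0.0233) and Ctps2 (-0.87, 0.0263). That count was 0 without knockout B or without either of heterozygous A and B, 1 without knockout A, 2 without heterozygous C and 3 without knockout C. Of 12 kinases tested, Cmpk1, which phosphorylates CMP and UMP (log2 change -0.76, limma adjusted p = 0.0318), and Nme4, a mitochondrial nucleoside diphosphate kinase (-1.08, 0.0367), fell. The kinase count was 3 when knockout C was left out and 0 when any other library was. Among 11 sanitation and breakdown enzymes, Dctpp1, which hydrolyses dCTP, fell (log2 change -1.14, limma adjusted p = 0.0263). Dctpp1 did not pass without heterozygous B, heterozygous C or knockout B. Pnp, purine nucleoside phosphorylase, rose, with 1065.1, 828.1 and 953.2 normalized reads in knockout libraries A, B and C, against 463.1, 474.2 and 565.7 in heterozygous libraries A, B and C (log2 change 0.92, limma adjusted p = 0.0209). Pnp did not pass without knockout B or without either of heterozygous A and B. Of 15 purine synthesis genes 0 fell by limma, edgeR or DESeq2, and 2 were lower at an unadjusted p under 0.05. Adssl1, an adenylosuccinate synthase, rose (log2 change 0.93, limma adjusted p = 0.0325). With a library left out, Adssl1 passed only without knockout C. Neither Pnp nor Adssl1 passed with replicate letters as a block. By limma 0 of 2 deaminases and 0 of 5 transporters passed. At an unadjusted p under 0.05 the deaminases had 0 and the transporters 1 lower and 1 higher, edgeR called 0 of either list, and DESeq2 called 1 transporter lower. The smallest p among the deaminases belonged to Dctd, dCMP deaminase (log2 change -0.48, limma adjusted p = 0.285), and among the transporters to Slc29a1 (-0.77, 0.0791).

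**Figure D4:**
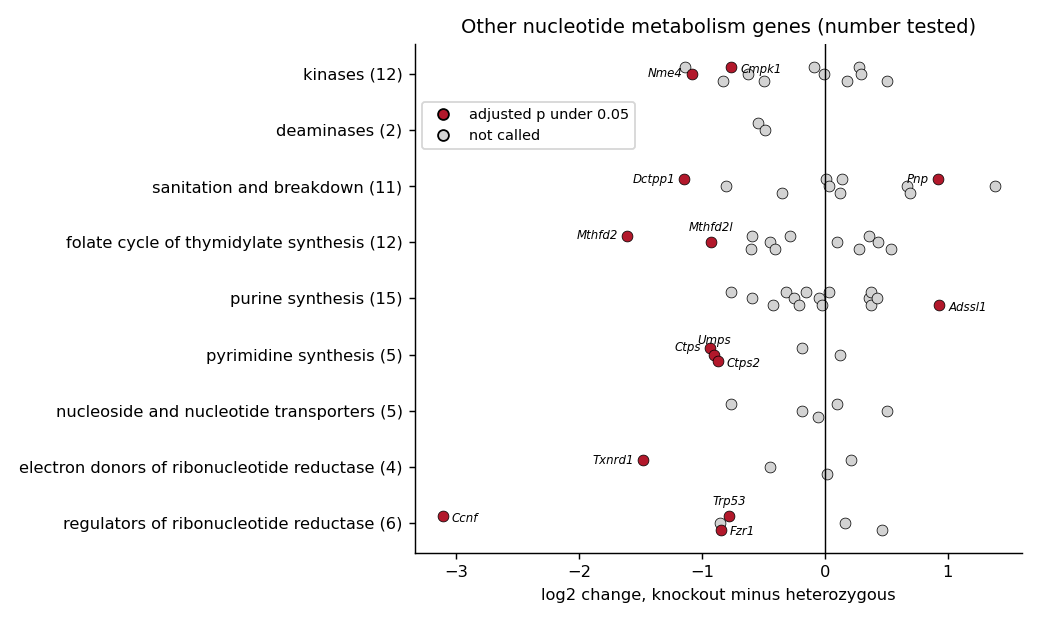
Log2 changes, knockout minus heterozygous, of the 72 other nucleotide metabolism genes tested, by role, with the genes at a limma adjusted p under 0.05 filled and named. The genes include the regulators of ribonucleotide reductase, and 1 of these, Ccnf, is the lowest at -3.11. Of the filled points, 12 lie left of 0 and 2, Pnp and Adssl1, lie right of it.

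Replication genes fell alongside the 9 enzymes. Of 7 MCM helicase genes 5 fell (median log2 change -1.50), of 17 fork polymerase, clamp and ligase genes 11 fell (median -1.13), and of 12 mitosis genes 12 fell (median -2.76), beside 8.59% of all genes tested. The MCM count was 0 without knockout B or without either of heterozygous A and B, and 4, 6 and 7 without knockout A, heterozygous C and knockout C. Calls over all genes, 2883 with the 6 libraries, were 697 without knockout B, 906 without heterozygous A and 635 without heterozygous B. The 8.59% belongs to the fit with all 6 libraries. The fork count was 2 without heterozygous B, 3 without knockout B, 4 without heterozygous A and between 9 and 13 otherwise, and the mitosis count was 12 in each case. Set against the mean log2 level of the 7 MCM genes in the same library, Rrm2 changed by -1.41 and Tk1 by -1.46, with groups that did not overlap. Dck (-0.54) and Rrm1 (-0.16) were also lower without overlap but by narrow gaps, and Rrm2b was higher by 1.16 without overlap. For Dck the highest knockout value was -1.305 and the lowest heterozygous value -1.255. For Rrm1 these were 0.737 and 0.792. The MCM mean itself changed by -1.27, so a gene with no change of its own lies higher on this scale in knockout libraries. Rrm2b overlapped between the groups in its own normalized reads. The share of all genes without overlap on this scale was not computed. Tyms (-0.45), Dut (0.01), Dtymk (0.72) and Samhd1 (1.59) overlapped between the groups on that scale. These are differences of log2 levels given as a description, with no test.

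**Figure D5:**
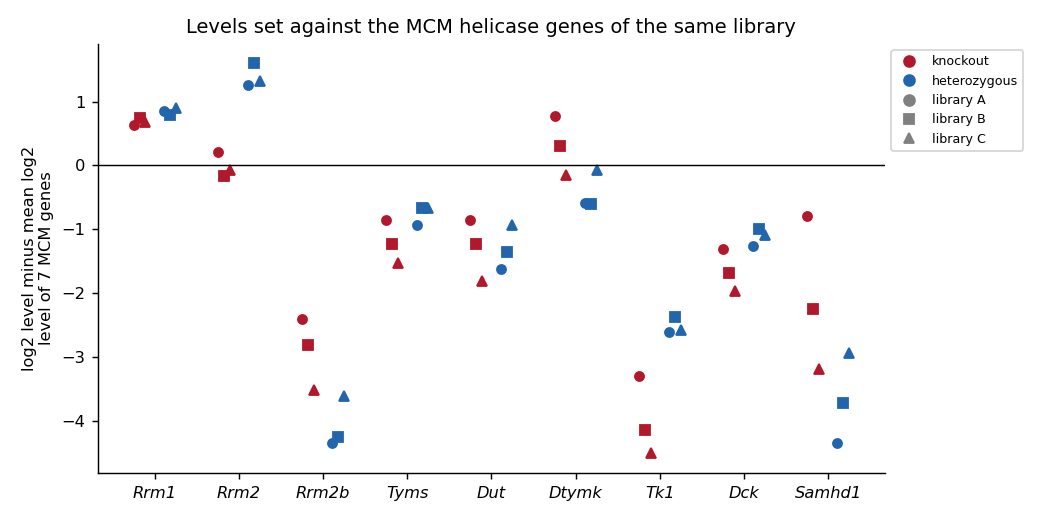
Log2 level of each of the 9 genes minus the mean log2 level of the 7 MCM helicase genes in the same library, knockout left of heterozygous, points being libraries. Rrm2 and Tk1 remain separated, by -1.41 and -1.46, and Dut, Tyms, Dtymk and Samhd1 overlap.

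Cell type markers moved with the genotypes too, beside 8.59% of all genes tested called lower and 7.23% called higher by limma. Shares of all genes in each direction at an unadjusted p, by edgeR or by DESeq2 were not computed. Over all genes, in either direction, edgeR called 2921 and DESeq2 4364, against 2883 by limma. All 10 neuroblast markers fell, with sums of 15321, 13257 and 16912 normalized reads in knockout libraries A, B and C, against 105886, 112591 and 72044 in heterozygous libraries A, B and C. With a library left out, 9 or 10 of the neuroblast markers fell. Of 10 quiescent stem cell and astrocyte markers 2 rose, between 0 (without heterozygous B) and 5 (without knockout A) with a library left out. Of these 10, 6 were higher at an unadjusted p under 0.05, 2 by edgeR and 7 by DESeq2. Of 5 markers of activated stem cells and progenitors 0 passed by limma, edgeR or DESeq2, also at an unadjusted p under 0.05. Of 10 ependymal markers 8 rose, with sums of 79617, 48740 and 19172 in knockout libraries A, B and C, against 14408, 13713 and 13453 in heterozygous libraries A, B and C. That ependymal count was 0 without heterozygous B, 1 without heterozygous A or knockout B, 2 without knockout A, 3 without heterozygous C and 10 without knockout C. Calls over all genes moved in these fits as well, as given above. By limma 0 of 10 endothelial, 0 of 10 oligodendrocyte and 0 of 5 red blood cell markers and 1 of 5 mural markers rose, with 2, 5, 0 and 2 higher at an unadjusted p under 0.05. edgeR called 0, 0, 0 and 2 of these higher and DESeq2 4, 1, 0 and 3. Without knockout C limma called all 10 endothelial markers, 3 red blood cell and 4 mural markers higher, and without heterozygous C 2 oligodendrocyte markers. Endothelial sums were 32466, 12205 and 3939 in knockout libraries A, B and C, against 5453, 6018 and 5819 in heterozygous libraries. No marker of any list was at 0 in any library, and the part of these markers in the changes of the 9 enzymes was not tested. Without knockout A, the library with the highest ependymal and endothelial sums, 6 of the 9 enzymes were called lower, and knockout B, which stayed in that fit, was also above every heterozygous library in both sums.

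Profiles most like those of Rrm2 and Samhd1 were sought among 14135 genes with a mean of at least 50 normalized reads, by the root mean square difference of log2 levels over the 6 libraries after centring each gene on its own mean. Nearest to Rrm2 were Elavl4, a neuronal RNA-binding protein (0.0754), Nusap1, a spindle protein (0.103), and Kif22, a mitotic kinesin (0.119). Elavl4 stood at 679, 743.5 and 1321.5 normalized reads in knockout libraries A, B and C, against 6275, 8244.5 and 4188 in heterozygous libraries A, B and C. Like Rrm2, it was highest in heterozygous B and lowest in knockout A. Nearest to Samhd1 were Dpm3, a subunit of an enzyme of glycosylation (0.0969), Gm45223 (0.102) and Psmb10, an immunoproteasome subunit (0.117). All 3 had their highest value in knockout A and their lowest in heterozygous A, as Samhd1 did. The neighbours of both genes were picked for likeness over these same 6 libraries, so shared highest and lowest libraries follow from that choice.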

How the data were processed

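RNA was sequenced from 6 pooled libraries after SMART-Seq v4 cDNA synthesis from at least 35 ng of total RNA and Nextera XT preparation, per the labels' protocols. HISAT2, featureCounts (Subread) and DESeq2 on GRCm38 are named in the submitters' processing notes, and versions, annotation and strand setting are not given in the sources used here. The deposited values are a normalized signal, read counts of each gene divided by 1 size factor per library, and the authors' mean is a signal as well. The authors' comparison is deposited beside them as a log2 fold change with its standard error, their statistic and test weight (scores) and their p-value and adjusted p-value, per the file headers. All values were whole multiples of 1 read (100% within 0.001 reads), so whole reads were recovered for the count tests, with totals of 19798675 to 25982361. Every pair of libraries differed beyond counting noise, with chi-square over degrees of freedom no lower than 31.5.

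Differences were tested in R 4.3.3 by two-sided limma 3.58.1, its variance prior following mean expression, on log2(value + 1), which understates changes of low genes, with genotype as the term. The filter, a mean of 10 or more, left 18227 of 55487 rows, with Benjamini-Hochberg adjustment over all of them at 0.05, and was tested on simulated data. Fold changes are differences of mean log2 values. Alternatives were edgeR 4.0.16, DESeq2 1.42.0, other scalings, filters and pseudocounts, the replicate letter as a block, and leaving out each library. Exact permutation tests compared differences between gene pairs. Exon lengths and coordinates came from GENCODE M21, which held 18206 of the tested genes, and promoters from RefSeq on GRCm38.p6. The 9 genes and all lists were chosen with earlier results of these data known. Named genes are the 9, each called gene of the other nucleotide metabolism lists or, where a list had none, its gene with the smallest p, and the 3 nearest profiles of Rrm2 and Samhd1. Tk2, Dguok and overlapping genes were added, a gene withheld for evaluation is not reported here, and called genes of the replication, mitosis and marker lists are given as counts. Figures were drawn with matplotlib 3.10.9.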

Additional observations from a re-analysis of the deposited data

How the results depend on the processing

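The count of the 9 enzymes called lower was 6 under both other pseudocounts, both other filters, TMM and upper-quartile scaling, edgeR and DESeq2, the same 6 genes each time, and 5 to 7 with each library left out. Rrm1 left the calls and Dtymk joined them in fits given in the results. The count called higher was 0 in every fit. For the other nucleotide metabolism genes, leaving out each library gave 3 to 18 called lower and 0 to 4 called higher, and without a filter on low values 9 were lower. Over all genes, 635 to 4019 were called with each library left out, 2921 by edgeR and 4364 by DESeq2, against 2883; the cause was not tested. With each library left out, Samhd1 ranged between -0.000245 (without knockout A) and 0.55, and E2f3 between -0.0582 (without knockout A) and 0.21, with -0.0462 without heterozygous B. None of these passed the test.

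Replicate letters showed no shared deviation: the deviations of same-lettered libraries from their group means correlated at -0.072, 0.021 and -0.103. Those of different-lettered libraries correlated between -0.087 and 0.161. These values cannot show whether same-lettered libraries were collected or processed together. With the replicate block, 6 of the 9 enzymes were called lower and 0 higher, 6 of the other nucleotide metabolism genes lower and 0 higher, and 2310 of all genes. For the 4 gene pairs, the replicate block gave an exact p of 0.25, the smallest that 3 pairs allow. The block cannot change these differences, since each letter has a library of either genotype. Precision is limited by 3 pools per genotype. For Tk1 counting error in knockout libraries adds to this, since it had the fewest recovered reads of the 9 there. These were 117, 125 and 135 in knockout libraries A, B and C. In heterozygous libraries Rrm2b and Samhd1 had fewer recovered reads than Tk1. Whole-gene counts cannot resolve isoforms.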

Other observations

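Tymp, which splits thymidine into thymine and a sugar phosphate, was not called but had groups that did not overlap. The share of all genes with every knockout library above every heterozygous library was not computed. It stood at 416.8, 327.7 and 126.5 normalized reads in knockout libraries A, B and C, against 95.8, 93.1 and 106.9 in heterozygous libraries A, B and C (log2 change 1.38, limma adjusted p = 0.0603). Its highest values were in knockout A and B, the libraries that also had the highest ependymal and endothelial marker sums, and the part of those cells was not tested. edgeR and DESeq2 called Tymp higher, as did limma without knockout C. Tymp was chosen after its values were seen.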
